A study of Mus musculus with 10 samples.

Results

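The interleukin-1 family is a group of cytokines, decoys and receptors through which damaged or infected tissue calls up inflammation. It was followed here by all probe sets that carry exactly 1 gene symbol among Il1a, Il1b, Il1rn, Il18, Il18bp, Il33, Il1r1, Il1r2 and Il1rl1. These are 11 of the 34945 probe sets with a single gene symbol, and 8 of 18193 genes. Il1rn, the IL-1 receptor antagonist, had 3 probe sets, Il1r1 had 2 and the other 6 genes had 1 each. No probe set was assigned to Il1rl1, the IL-33 receptor, which was not analysed here.

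RNA came from male ICR mice, an outbred stock, 28 months of age. From 8 months of age the mice received the AIN-93 diet alone (control, 9 mice) or AIN-93 with 1 to 2% LB81 yogurt (10 mice), housed singly and free of specific pathogens, with no transgene or other agent named. Jejunum, ileum, distal colon, liver and spleen were taken from the same 2 groups of mice. Equal amounts of RNA were pooled per diet and tissue and hybridised to 1 Affymetrix mouse expression array each, which gives 10 arrays in all. A pool holds no spread between mice, so a difference between diets within a tissue has no replicate check. The number of arrays, rather than any count of molecules, limits the precision.

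In this family Il1a and Il1b encode the ligands of the signalling receptor Il1r1, Il1rn encodes a secreted antagonist that occupies that receptor without signalling, and Il1r2 encodes a decoy that binds IL-1 without passing on a signal. IL-18 and IL-33 are related cytokines with receptors of their own, and Il18bp encodes a soluble protein that holds IL-18 away from its receptor. IL-1β and IL-18 are made as precursors that the protease caspase-1 cuts within inflammasomes, whereas IL-33 is stored in the nuclei of barrier and stromal cells and is released on damage. In the gut, IL-18 is known as an epithelial product, and in the liver the receptor antagonist is known as an acute-phase protein.

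On the mouse assembly GRCm38.p6, Il1a (chr2:129299609-129310186), Il1b (chr2:129364569-129371164) and Il1rn (chr2:24336860-24351491) lie on chromosome 2. Il1r2 (chr1:40084692-40125230) and Il1r1 (chr1:40222480-40316201) lie side by side on chromosome 1. Il18 (chr9:50554700-50581841), Il18bp (chr7:102015074-102018232) and Il33 (chr19:29925113-29960718) lie apart from the others. RefSeq start regions were found for all 9 members, 14 windows in all. The 4 shown cover 250 bases before a start site, and were chosen because Il1rn and Il33 gave the largest diet ratios among the members and Il1b the clearest spleen level. Capitals mark motif matches, and each sequence is written 5′ to 3′ on the gene's own strand.
Il1rn, outer start, chr2:24336610-24336859, plus strand: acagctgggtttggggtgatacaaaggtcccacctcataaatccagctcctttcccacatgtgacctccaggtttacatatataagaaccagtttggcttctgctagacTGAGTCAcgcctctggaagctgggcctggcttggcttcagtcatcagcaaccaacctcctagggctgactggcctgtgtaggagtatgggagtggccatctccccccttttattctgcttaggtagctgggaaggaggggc
Il1rn, inner start, chr2:24345041-24345290, plus strand: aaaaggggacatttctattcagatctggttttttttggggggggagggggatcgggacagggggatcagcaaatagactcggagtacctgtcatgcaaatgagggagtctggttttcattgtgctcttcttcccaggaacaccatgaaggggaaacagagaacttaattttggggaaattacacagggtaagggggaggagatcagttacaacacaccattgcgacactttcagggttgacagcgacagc
Il33, inner start, chr19:29945540-29945789, plus strand: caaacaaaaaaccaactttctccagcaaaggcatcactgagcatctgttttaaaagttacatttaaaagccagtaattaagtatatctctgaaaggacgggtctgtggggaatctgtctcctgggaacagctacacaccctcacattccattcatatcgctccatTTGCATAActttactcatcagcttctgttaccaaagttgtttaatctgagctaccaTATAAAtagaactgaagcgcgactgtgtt
Il1b, chr2:129371140-129371389, minus strand: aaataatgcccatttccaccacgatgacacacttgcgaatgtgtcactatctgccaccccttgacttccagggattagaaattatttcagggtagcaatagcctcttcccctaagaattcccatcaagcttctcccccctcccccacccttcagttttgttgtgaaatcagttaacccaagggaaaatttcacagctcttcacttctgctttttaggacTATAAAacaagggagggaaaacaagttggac

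The outer Il1rn window lies upstream of the gene, and the inner one shown lies inside it, before an alternative start. The outer window held 1 AP-1 match (TGANTCA), 141 to 135 bases before the start, and the inner window held no match to the 6 motifs searched. The inner Il33 window held a TATA box (TATAAA) 29 to 24 bases and a C/EBP match (TTGCNNAA) 85 to 78 bases before the start. Of the windows not shown, a further inner Il1rn window (chr2:24345121-24345370) held no match. The outer Il33 window held a TATA box 203 to 198 bases before its start. The Il1b window held a TATA box 31 to 26 bases before the start. Searched on both strands in 32536 RefSeq windows of the same length, TATAAA was present in 12.3%, TTGCNNAA in 9.57%, TGANTCA in 6.73%, the PU.1 core GAGGAA in 23.4%, the interferon response element in 2.98% and the NF-kB motif in 3.92%. These matches describe letters in the windows and are not shown to be bound.

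All values below are the log2 expression values as deposited. Each array's median over its probe sets, 5.42 to 5.49, served as a floor. A gene counted as measured in a tissue when at least 1 of its 2 arrays was above it. Values under the floor were raised to it before ratios and tests, so a ratio against such a value is a lower bound. The yogurt and control arrays of a tissue correlated at Spearman 0.991 to 0.994 across genes, which are not independent replicates. The defining markers of each tissue were above the floor in its own arrays, with Lct (lactase) under the floor in ileum. The distal colon yogurt array also held small-intestinal genes at higher levels than its control, with Fabp2 at 10.39 against 8.76 and Alpi at 7.48 against 5.09. In jejunum, all 6 pancreatic enzyme genes were higher in the yogurt array, with a summed linear level of 48375 against 18768. The summed level of adipocyte markers was higher in the yogurt arrays of ileum (2200 against 1404) and distal colon (1955 against 1189). It was near level in jejunum, liver and spleen.

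**Figure D1:**
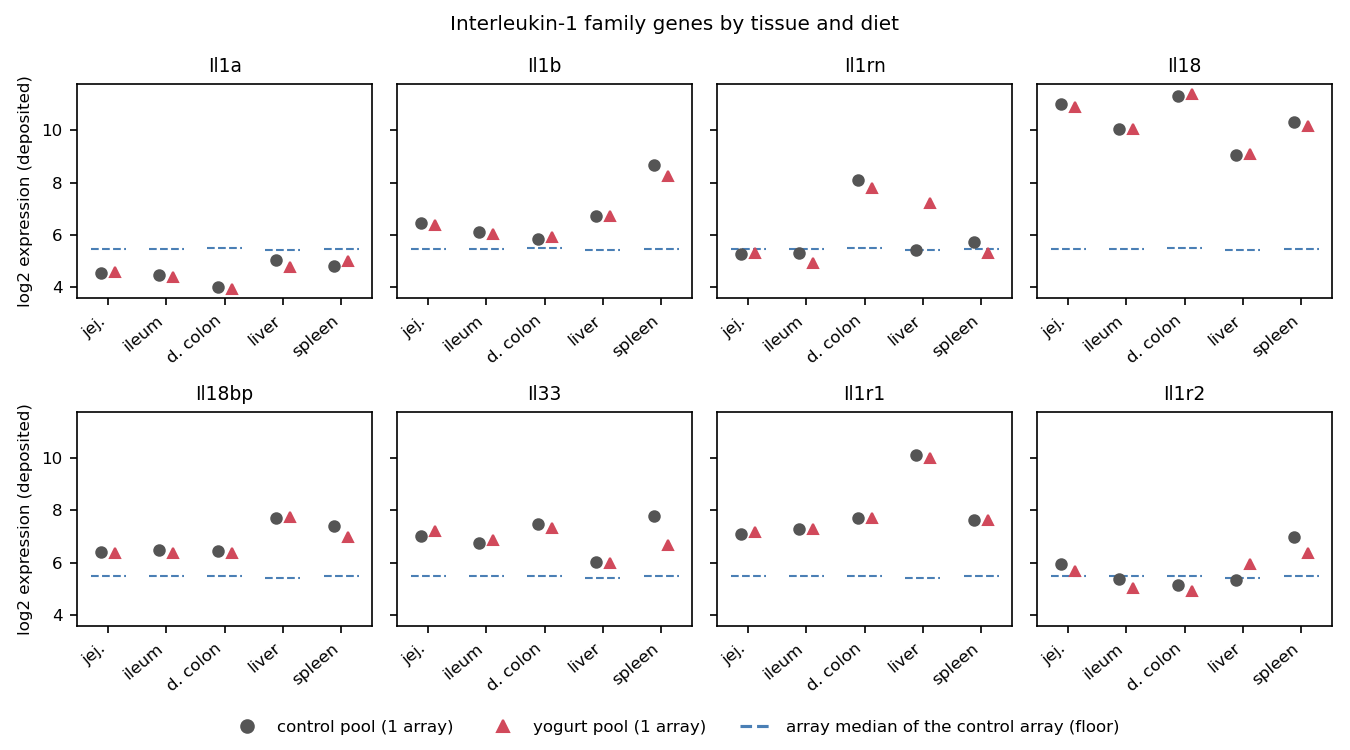
Log2 expression (vertical axis, as deposited) of the 8 genes in the 5 tissues (horizontal axis); each point is 1 array of pooled RNA, circles for control and triangles for yogurt, and dashed lines mark the median of the control array. Il1a lies under the dashed line in all 10 arrays, Il1b is highest in spleen, Il1r1 in liver and Il1rn in distal colon, where the control array read 8.08.

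Among the ligands, Il1b was highest in spleen and Il1a was not above the floor in any tissue. Il1b read 8.68 in control spleen and 8.26 in yogurt spleen, 6.73 in both liver arrays, 6.45 and 6.38 in jejunum, 6.13 and 6.02 in ileum, and 5.86 and 5.93 in distal colon (control first, as throughout). Both spleen arrays lay above all 8 others. Spleen exceeded liver, the next tissue, by 1.75 on the log2 scale (SE 0.12, 3.35-fold; adjusted p = 2.83e-06, limma over 13604 genes), and the gap to distal colon was 2.58. The order below spleen was liver, jejunum, ileum and distal colon. Jejunum and ileum (adjusted p = 0.0559) and ileum and distal colon (adjusted p = 0.24) did not pass the adjusted threshold, although the 2 jejunum arrays lay above the 2 ileum arrays (unadjusted p = 0.0217, limma). Il1a, the other IL-1 receptor agonist, read between 3.95 and 5.04 and stayed under the floor in all 10 arrays, so it was not tested.

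Il18, which encodes a cytokine activated by caspase-1, differed in every pair of tissues. It read 11.31 and 11.38 in distal colon, 11.01 and 10.89 in jejunum, 10.31 and 10.17 in spleen, 10.05 and 10.07 in ileum, and 9.06 and 9.07 in liver, with no overlap between the arrays of any 2 tissues. All 10 contrasts had an adjusted p below 0.05 (limma), the largest being 0.0303 for spleen over ileum, a gap of only 0.18. Of all gene and contrast pairs, 66.3% passed that threshold. Of the 10 Il18 contrasts, 5 also reached 2-fold, where 22.8% of all pairs passed both. The widest was distal colon over liver, 2.28 (SE 0.06, 4.86-fold; adjusted p = 1.82e-08). Ileum over liver, at 1.00 (1.99-fold), fell just short of 2-fold, and passed it at 1.02 without the ileum control array and at 1.03 without the liver yogurt array.

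Il33, which encodes the nuclear alarmin, was lowest in liver. Its values were 7.48 and 7.32 in distal colon, 7.03 and 7.20 in jejunum, 6.73 and 6.88 in ileum, 6.04 and 5.99 in liver, and 7.79 and 6.69 in spleen. The spleen pair spanned the range of the gut arrays. Control spleen was the highest of the 10 arrays, while yogurt spleen lay below all jejunum, ileum and distal colon arrays. Liver was exceeded by distal colon by 1.38 (SE 0.28; adjusted p = 0.0022), by spleen by 1.23 (adjusted p = 0.00404) and by jejunum by 1.10 (adjusted p = 0.00763, limma). The spleen gap was 0.66, short of 2-fold, without the spleen control array. The jejunum gap lost its call without the jejunum yogurt array (0.87, adjusted p = 0.0694) and without the liver control array (1.00, adjusted p = 0.0735). The ileum gap, 0.79, reached 1.01 without the ileum control array (adjusted p = 0.0452). Under a floor at the 65th percentile none of the 3 gaps reached 2-fold (0.90, 0.74 and 0.62), and when a pseudocount replaced the floor the spleen and jejunum gaps were 0.94 and 0.82. None of the differences among the other 4 tissues was called.

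Of the binding partners, Il1r1 and Il18bp were highest in liver, Il1r2 in spleen like Il1b, and Il1rn in distal colon like Il18 and Il33. Il1r1, the signalling receptor, read 10.11 and 10.02 in liver against 7.70 and 7.71 in distal colon, 7.63 and 7.65 in spleen, 7.27 and 7.30 in ileum, and 7.10 and 7.16 in jejunum. The liver arrays stood far above the other 8, which read between 7.10 and 7.71. Liver exceeded distal colon by 2.36 (SE 0.07, 5.13-fold; adjusted p = 2.54e-08, limma) and jejunum by 2.94. Distal colon and spleen (adjusted p = 0.429) and ileum and jejunum (adjusted p = 0.117) did not pass the threshold. A further Il1r1 probe set, 1459777_at, read 2.91 to 3.14 and never passed the floor.

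Il18bp, the soluble IL-18 antagonist, was also highest in liver. It read 7.69 and 7.74 there, 7.40 and 6.99 in spleen, 6.49 and 6.39 in ileum, 6.43 and 6.37 in distal colon, and 6.40 and 6.36 in jejunum. The 6 gut arrays overlapped one another and lay below both other tissues. Liver exceeded ileum by 1.28, distal colon by 1.31 and jejunum by 1.34 (SE 0.11 each; adjusted p between 1.5e-05 and 1.87e-05, limma). Spleen exceeded jejunum by 0.82 (adjusted p = 0.000269), short of 2-fold, and by 1.00 without the spleen yogurt array, where the call was gained. Liver and spleen differed by 0.52 (adjusted p = 0.00328).

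Il1r2, the decoy receptor, was close to the floor outside spleen. It read 6.99 and 6.37 in spleen, 5.95 and 5.68 in jejunum, and 5.35 and 5.95 in liver, where the control was under the floor. Both arrays of ileum (5.38 and 5.03) and distal colon (5.14 and 4.92) were also under it. With those values raised to the floor, spleen exceeded ileum by 1.20 (SE 0.22; adjusted p = 0.00146) and distal colon by 1.19 (adjusted p = 0.00156, limma), gaps that are lower bounds. Without the spleen control array they were 0.86 and 0.85 and no longer reached 2-fold, nor did the ileum gap with a pseudocount (0.97). The gap between spleen and liver, 0.99, reached 1.02 under a floor at the 35th percentile, 1.37 without the liver yogurt array and 1.33 without the spleen yogurt array. The gap between spleen and jejunum, 0.86, reached 1.21 without the spleen yogurt array.

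Il1rn, the receptor antagonist, was highest in distal colon. Its brightest probe set, 1451798_at, read 8.08 and 7.78 in distal colon, 5.41 and 7.22 in liver, 5.73 and 5.30 in spleen, 5.28 and 5.31 in jejunum, and 5.31 and 4.94 in ileum, so 6 of the 10 values were under the floor. Both colon arrays lay above the other 8 in this probe set, but in 1423017_a_at the yogurt liver (6.88) lay above the yogurt distal colon (6.72). With the floor applied, distal colon exceeded jejunum by 2.46, ileum by 2.46 and spleen by 2.32 (SE 0.45 each, adjusted p between 0.00193 and 0.0025, limma). Each of these gaps is a lower bound, since values in those tissues were raised to the floor. The 1.61 by which distal colon exceeded liver (adjusted p = 0.0123, limma), also a lower bound, depended on single arrays. It was 1.27 without the distal colon control (adjusted p = 0.0993) and 0.65 without the liver control. Without the liver control array, liver in turn exceeded jejunum and ileum by 1.81 each and spleen by 1.67, and all 3 were called. Without the liver yogurt array, liver lay 0.26 below spleen. The 2 other probe sets, 1423017_a_at and 1425663_at, also had distal colon above spleen, by 1.29 and 2.30, but differed on the colon-liver gap, at 0.42 (adjusted p = 0.155) and 1.87 (adjusted p = 0.000261).

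**Figure D2:**
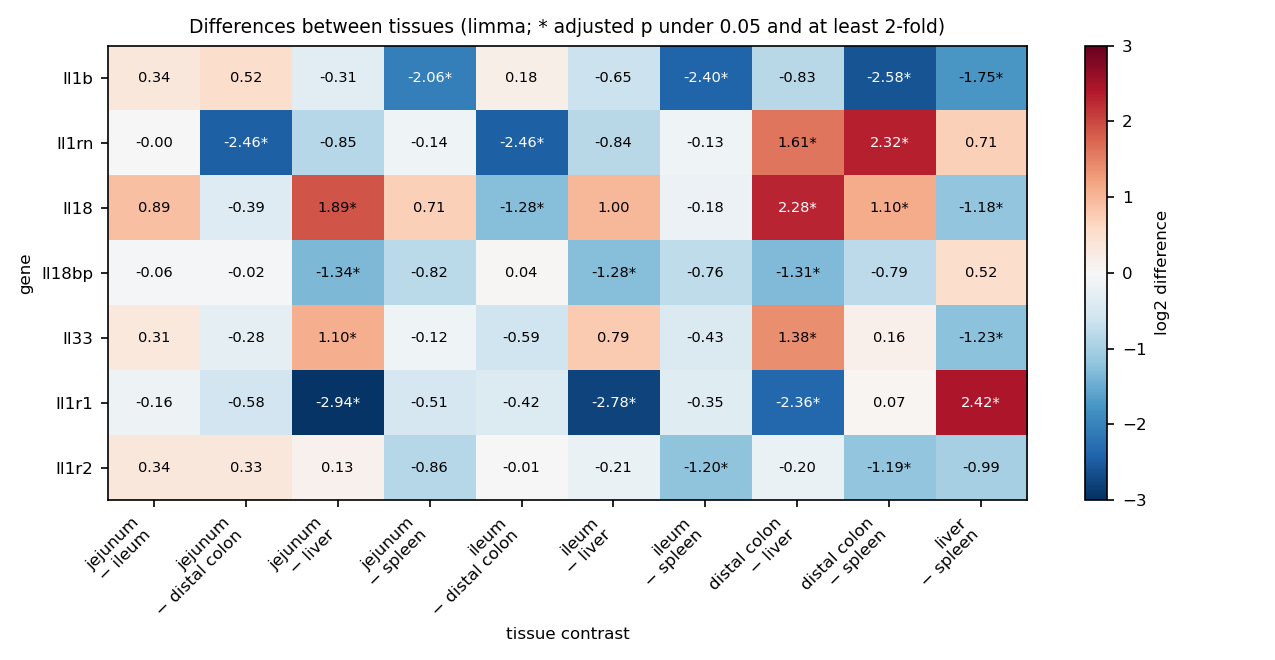
Log2 differences between tissues (columns, first minus second tissue) for the 7 tested genes (rows), from the limma fit over 10 arrays; colour gives the size, and an asterisk marks an adjusted p below 0.05 with at least a 2-fold difference. The Il1b row is negative in all 4 columns ending in spleen, and the Il1r1 row is marked in all 4 liver columns, with 2.94 the widest gap.

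Over the 7 tested members and 10 tissue contrasts, 25 of 70 pairs were called, 35.7%, where 22.8% of all gene and contrast pairs were. Il1rn and Il1r2 entered the test through the tissues where they are high, so this share is given as a description. No member was called between jejunum and ileum (all genes 4.94%), where Il18 (1.86-fold, adjusted p = 3.74e-05, limma) stayed under 2-fold and Il1b had an unadjusted p of 0.0217. 1 of 7 was called between jejunum and distal colon (12.2%), 4 between jejunum and liver (26.1%), 1 between jejunum and spleen (28.4%), 2 between ileum and distal colon (8.87%) and 2 between ileum and liver (27.4%). Between ileum and spleen 2 were called (29.6%), between distal colon and liver 5 (28.5%), between distal colon and spleen 4 (28.4%) and between liver and spleen 4 (33.2%). Shares of 7 genes are coarse, and nothing particular to the family is read from them. In whole-tissue RNA, a difference in the number of expressing cells and a difference in RNA per cell cannot be told apart. RNA integrity moved with tissue: the log2 ratio of the 3′ to the 5′ actin control was 2.01 and 1.82 in liver against 0.66 to 1.09 elsewhere, and that of Gapdh was 0.86 to 1.29 in liver and spleen against 0.05 to 0.23 in the gut. Its part in the liver and spleen values was not tested.

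The comparison of yogurt with control asked whether long-term yogurt intake went with different expression in each tissue. The clearest difference in the family was Il1rn in liver, where it was at least 3.47-fold higher in the yogurt pool, followed by Il33 in spleen, which was 2.14-fold lower. Il1r2 was 1.54-fold lower in spleen. Of 31 member and tissue pairs that were measured, 14 ratios were above 0 and 17 below, and these 3 passed 1.5-fold, where 0.992% of all gene and tissue pairs did.

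**Figure D3:**
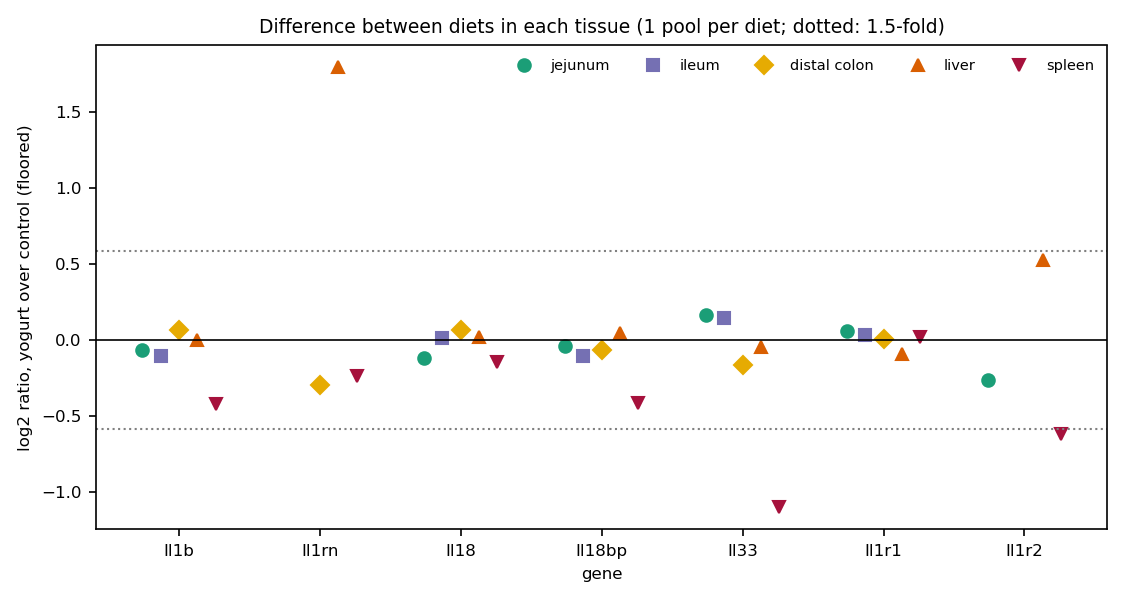
Log2 ratio of yogurt over control (vertical axis, values raised to the floor) for each measured gene (horizontal axis) and tissue (marker shape and colour); dotted lines mark 1.5-fold, and each point rests on 1 pool per diet. Il1rn in liver (1.80) and Il33 in spleen (−1.10) lie farthest from 0, and apart from Il1r2 in spleen (−0.62) the other points lie between the dotted lines.

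In liver, 1 of 7 measured members was past 1.5-fold (all genes 0.838%; 0.501% in the upward direction). Il1rn went from 5.41, just under the control floor, to 7.22, a log2 ratio of at least 1.80. Only 1 other gene of 12166 measured in liver lay as far from 0. The other Il1rn probe sets were also higher in the yogurt liver, 1423017_a_at at 6.88 against 6.07 (0.80) and 1425663_at at 6.41 against 4.55 (at least 0.98). All 3 probe sets pointed the same way, by different amounts. A floor at the 65th percentile left the bound at 0.71, and the mean of the 3 probe sets gave 1.41. Il1r2, the decoy, was the next member in liver, at 5.95 against 5.35 (at least 0.53, or 1.44-fold). Il1b, Il18, Il18bp, Il33 and Il1r1 differed little there, from 0.0023 (Il1b) to 0.09 (Il1r1, lower with yogurt). The liver median of the 7 members was 0.02, against −0.03 for all genes.

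**Figure D4:**
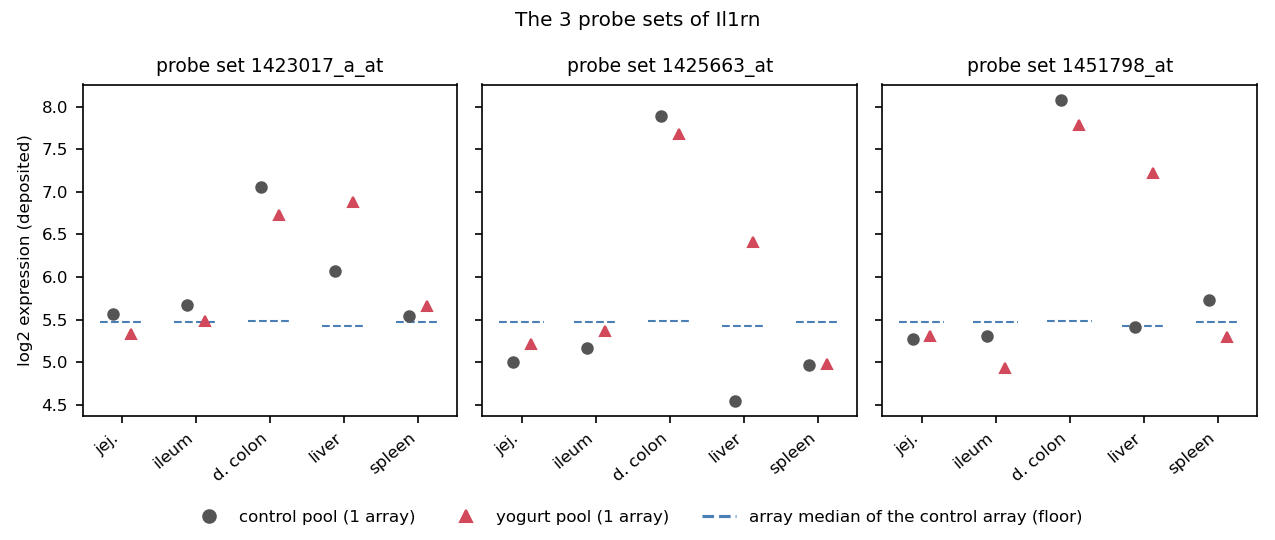
Log2 expression (vertical axis, as deposited) of the 3 Il1rn probe sets in the 5 tissues (horizontal axis); circles are control and triangles yogurt pools, 1 array each, and dashed lines mark the median of the control array. In every panel distal colon is high in both pools and the yogurt liver lies above the control liver, by 0.80 in the probe set with the smallest gap. In 1423017_a_at the yogurt liver (6.88) also lies above the yogurt distal colon (6.72).

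Marker genes of granulocytes also differed between the liver pools. All 12 measured neutrophil markers of 13 were higher in the yogurt liver (median 0.43), 4 of them past 1.5-fold: Chil3 (1.38), S100a8 (1.27), S100a9 (1.25) and Ltf (0.60). Their summed linear level was 7381 against 4946, and Mmp9 was under the floor in both arrays. Of 14 macrophage and monocyte markers 10 were higher, with a median of 0.08 and a sum of 12336 against 11238. Cd14, a receptor for bacterial lipopolysaccharide, was higher by 1.32, while the Kupffer cell markers Clec4f (9.80 and 9.77) and Vsig4 (10.60 and 10.61) were level. The part of these liver markers in the Il1rn value was not tested. Neutrophil markers were mostly higher with yogurt in the gut too, 7 of 8 measured in jejunum (median 0.50). The counts were 5 of 6 in ileum (0.12) and 5 of 6 in distal colon (0.17).

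In spleen, 2 of 7 measured members were past 1.5-fold, both lower (all genes 1.73%; 1.09% downward). Il33 read 6.69 in the yogurt and 7.79 in the control spleen, a ratio of −1.10, and 34 of 11882 genes, itself included, lay as far from 0. Il1r2 read 6.37 against 6.99, a ratio of −0.62. It fell short of 1.5-fold under 3 other settings, at −0.47 when a pseudocount replaced the floor, −0.46 under a floor at the 65th percentile, and −0.57 after centring on the tissue median. Il1b (8.26 against 8.68) and Il18bp (6.99 against 7.40) were both lower by 0.42, and Il1rn by at least 0.23, since its yogurt value was under the floor. Il18 was lower by 0.14 and Il1r1 higher by 0.02. The members' median was −0.42, with 6 of 7 below 0. Over all genes the median was −0.05, with 61.5% below 0.

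Cell type markers also differed between the spleen pools. All 13 neutrophil markers were higher with yogurt (median 0.95, 11 past 1.5-fold), and their summed linear level was 32592 against 18315. All 7 measured mast cell markers of 11 were higher (median 0.60), with a sum of 893 against 519 and Mcpt1, Mcpt2, Tpsab1 and Ms4a2 under the floor in both arrays. By contrast, 0 of 7 measured stromal markers were higher (median −0.28), with a sum of 4817 against 5903, Dpt lower by 0.63 and Lum under the floor. Of 12 measured macrophage markers 1 was higher (median −0.13, sum 22569 against 23986). The 3′ to 5′ Gapdh ratio was 1.29 in the yogurt spleen and 1.01 in the control. The part of these values in the Il33, Il1r2 and Il1b ratios was not tested.

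In the gut no member was past 1.5-fold. None of 6 measured members was in jejunum (all genes 0.88%), none of 5 in ileum (0.504%) and none of 6 in distal colon (1.03%). The largest gut differences were Il1rn in distal colon, 7.78 against 8.08 (−0.30), Il1r2 in jejunum, 5.68 against 5.95 (−0.26), and Il33, which was lower in the yogurt colon (−0.16) and higher in the yogurt jejunum (0.16) and ileum (0.15). Il1rn thus leaned the other way in distal colon than in liver. Il18, high in all 3 segments, differed by 0.12 at most, and Il1r1 by 0.06 at most. The members' medians were −0.05 in jejunum, 0.01 in ileum and −0.03 in distal colon, beside −0.01, −0.04 and −0.01 for all genes.

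A difference between diets shared by the 5 tissues was not found for any member. The diet term of the limma fit was called for 0 of 7 members (all genes 0%), with 0 at an unadjusted p below 0.05 and a lowest adjusted p of 0.591, for Il18bp at −0.12 (SE 0.07). Over all 13604 genes 1445 had an unadjusted p below 0.05. The tissues come from the same mice, so this p measures the spread between tissues and does not stand for replicates of the diet.

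The rest of the pathway was read from lists of genes. Of the other IL-1 family ligands and receptors, 5 of 11 matched genes were tested and 13 of 50 gene and contrast pairs were called (26%, beside 22.8% of all pairs). Il18r1, the ligand-binding chain of the IL-18 receptor, was highest in spleen (8.84 and 8.71) and under the floor in liver (5.16 and 5.20), a gap of at least 3.34 (adjusted p = 4.78e-08, limma). Il18rap, its signalling chain, was also highest in spleen (7.36 and 7.37) and read 5.49 and 5.58 in liver. Sigirr, an inhibitory receptor of the family, was highest in ileum (8.63 and 8.58) and lowest in spleen (7.65 and 7.39). None of these genes was past 1.5-fold between diets in any tissue, the nearest being Il18rap in distal colon (6.11 against 5.55, a ratio of 0.55).

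Of the inflammasome and processing genes, 67 of 160 pairs were called (41.9%, beside 22.8% of all pairs). Aim2, Ctsg and Cma1 entered the test through 2, 3 and 4 arrays, mostly of the tissues where they are high. This share is therefore given as a description. Liver was called lower than jejunum in 7 of the 16 genes (26.1% of all genes were called either way in that contrast), than ileum in 8 (27.4%), than distal colon in 8 (28.5%) and than spleen in 11 (33.2%). It was called higher in 0 of the gut contrasts and, against spleen, for Nlrp6 alone. Pycard, the ASC adaptor, read 12.22 and 12.17 in jejunum and 6.92 and 6.70 in liver, a gap of 5.38 (adjusted p = 2.58e-09, limma). Casp1, the protease that cuts IL-1β and IL-18, read 10.87 and 10.75 in ileum and 6.65 and 6.97 in liver. Naip5, a flagellin sensor, was highest in ileum (10.47 and 10.33), and Nlrp6, another inflammasome sensor, was high in jejunum (9.56 and 9.60), read 8.70 and 8.49 in liver, and was under the floor in spleen. Between diets, Ctsg, Cma1 and Elane were higher in the yogurt spleen, by 1.75, 1.44 and 1.30. They encode granule proteases of neutrophils and mast cells and were listed because such proteases can cut IL-1 family precursors. Cma1 was lower in the yogurt colon, by 0.99. No other gene of the list was past 1.5-fold.

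The signalling list had the smallest share of called pairs among the 5 lists, 29 of 210 (13.8%, beside 22.8% of all pairs). Tifa, a TRAF-interacting adaptor, was lowest in jejunum (6.75 and 7.22) and exceeded it by 2.31 in liver. Ikbkg, the regulatory subunit of the IκB kinase, was highest in liver (9.41 and 9.22), and Tnfaip3, an NF-κB inhibitor, was higher in distal colon (9.37 and 9.42) than in liver (7.61 and 7.72). Between diets, Irak1bp1, an IRAK1-binding protein, was lower in the yogurt spleen (7.02 against 8.10, −1.08), and Nfkbiz, an IL-1-inducible nuclear IκB protein, was higher in the yogurt colon (9.56 against 8.87, 0.70). No other gene of the 21 was past 1.5-fold in any tissue.

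Of the genes known to be induced by IL-1 or IL-18, 10 of 20 were tested and 41 of 100 pairs were called (beside 22.8% of all pairs). Mmp13 and Zc3h12a were above the floor in 6 arrays each and Ptgs2 in 5, all from the gut, so this share is given as a description. Lcn2 (lipocalin) and Saa3 (a serum amyloid A) were highest in liver, and Vcam1, an adhesion molecule, in spleen (12.49 and 12.44). Between diets, Saa3 was higher with yogurt in all 5 tissues, by 0.37 in ileum, 1.10 in jejunum, 1.13 in liver, 1.29 in spleen and at least 2.95 in distal colon, where the control was under the floor. Lcn2 was also higher in all 5, by 0.18 in distal colon, 0.45 in liver, 0.60 in ileum, at least 1.19 in jejunum and 1.35 in spleen. Lcn2 is itself in the neutrophil list, and the part of cell make-up in the Saa3 and Lcn2 ratios was not tested. No other gene of the list was past 1.5-fold in any tissue. Ccl20, a chemokine gene, was lower with yogurt in all 5 (−0.06 to −0.47), and the other genes above the floor in all 10 arrays, Cxcl1, Icam1 and Vcam1, were higher in some tissues and lower in others. Of the type 2 genes that IL-33 is known to act on, 4 of 13 were tested and 12 of 40 pairs were called (beside 22.8% of all pairs). Arg1 and Il17rb entered the test through 2 arrays each, the liver arrays where they are high, so this share is given as a description. Arg1 (12.83 in both arrays) and Rora were highest in liver and Klrg1 in spleen, and none was past 1.5-fold between diets. The cell source of the Arg1 signal in liver was not tested.

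**Figure D5:**
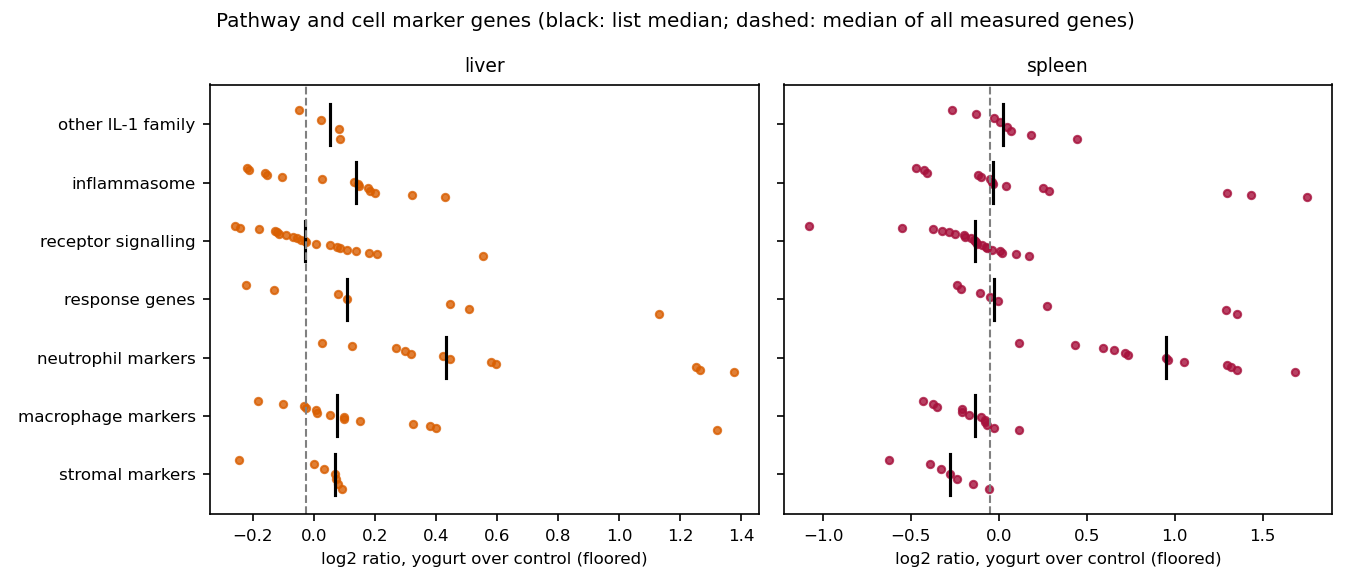
Log2 ratio of yogurt over control (horizontal axis, values raised to the floor) of each measured gene in 4 pathway lists and 3 cell marker lists (rows), in liver and spleen; black bars are list medians and the dashed line is the median of all measured genes. Neutrophil markers lie to the right in both tissues, with medians of 0.43 and 0.95, and stromal markers lie to the left in spleen (−0.28).

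Across the 10 arrays, the genes whose pattern was most like a member's were ranked by Pearson's r over 12605 genes. These r are descriptions over 5 tissues taken in pairs from the same mice, so a gene with the same tissue order scores high. Nearest to Il1b were Fcer1g (0.995), Cd300a (0.991), Tyrobp (0.989), Blm and Cd47 (0.987 each). Nearest to Il1r1 were Ildr2 (0.997), Stbd1, Serpina1c (0.996 each), Crem (0.995) and Dap (0.994). Il18 was led by Dap3 (0.987), Il18bp by Fam167b (0.989), Il1rn by Sertad4 (0.967), Il1r2 by Tbc1d4 (0.958) and Il33 by Mettl14 (0.932). Values raised to the floor were used, and Il1rn was above it in 4 arrays and Il1r2 in 5. Every r of these 2 genes therefore rests on few arrays. Among the members themselves, Il1b and Il1r2 had the highest r (0.92), followed by Il18bp with Il1r1 (0.85) and Il18 with Il33 (0.82), while Il18 ran opposite to Il18bp (−0.81).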

How the data were processed

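Per the labels, the 10 arrays each carried pooled RNA of 1 diet and tissue, amplified with a 3′ in vitro transcription kit. The authors deposited log2 values for 45101 probe sets, 64 of them controls. MAS5 and affy are named in the submitters' processing notes, and the summarisation and scaling steps are not given in the sources used here, so the deposited values were used unscaled. GEO's platform annotation gave 1 gene symbol to 34945 probe sets, several to 932 and none to 9160; 34741 were matched to RefSeq by Entrez number and 0 symbols changed.

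A gene was read from its probe set of highest mean. Values below each array's 50th percentile were raised to it. Diet ratios were computed per tissue without a test, with 1.5-fold as the threshold. Tissues were compared with limma 3.58.1 in R 4.3.3 (tissue and diet terms, eBayes with trend, 4 residual degrees of freedom) over 13604 genes with 2 or more arrays above the floor, with Benjamini-Hochberg adjustment per contrast; called means an adjusted p below 0.05 and at least 2-fold. The arrays of a tissue are separate pools on different diets, so p-values measure the spread between these pools. The fit was tested on simulated data. Every member is named; from each list, at most the 3 largest diet ratios past 1.5-fold and the 3 widest tissue ranges among called genes, and, for each member, the genes of highest Pearson's r. Genes beyond these, such as Il18rap's diet ratio, Casp1, Cd14, Clec4f, Vsig4, Fabp2 and Alpi, were chosen after their values were seen. Motifs were searched in RefSeq windows of GRCm38.p6. The members and lists were chosen with earlier results of these data known. The alternatives were other floors, a pseudocount of 32, quantile normalization, other probe set rules, no filter, no trend, no diet term, no fold minimum, and leaving out each array.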

Additional observations from a re-analysis of the deposited data

Results flagged for a closer look

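The 3 diet ratios past 1.5-fold each belong to a member whose ratio pointed the opposite way in another tissue; smaller ratios of both signs also occurred for the other 4 measured members. The tissue with the largest opposite ratio is given. Il1rn was higher in the yogurt liver, by a log2 ratio of at least 1.80, and lower in the yogurt distal colon (−0.30). Il33 was lower in the yogurt spleen (−1.10) and higher in the yogurt jejunum (0.16). Il1r2 was lower in the yogurt spleen (−0.62) and higher in the yogurt liver (at least 0.53). Each of these ratios rests on 1 pool per diet, and the difference between tissues was not tested.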

How the results depend on the processing

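The count of called member and contrast pairs, 25 of 70, was 20 of 60 with a floor at the 65th percentile, where 6 members were tested. It was 26 of 80 with a floor at the 35th percentile, where 8 were. The remaining settings with the 2-fold minimum gave counts between these. Without that minimum the count became 45 of 70, where 66.3% of all gene and contrast pairs passed. Leaving out 1 array at a time gave 22 to 28, lowest without the spleen control array and highest without the spleen yogurt array. The count of diet ratios past 1.5-fold, 3 as reported, was 2 to 4, and the ratio centred on each tissue's median, which gave 2, was chosen after seeing the data. The common diet term was called for 0 members under every setting run. Single tissue differences kept direction and call in 663 of 700 refits without 1 array and in 648 of 690 under the other settings. Of 202 recomputed diet ratios, 198 moved by less than the residual SD of the gene's fit and 4 by more. Among the 4 was Il1rn in liver, at 0.71 with the higher floor. With 1 array per diet and tissue, that SD reflects how the diet ratio itself varied between tissues. It was 0.62 for Il1rn and 0.37 for Il33, a loose limit for their ratios. No called difference changed sign. No paired test of diet within a tissue was possible, because each diet and tissue has 1 array and the labels carry no replicate numbers. Between tissues, the diet term pairs the arrays by the 2 groups of mice, and without it the count of called pairs was also 25. Il1a, Il1r2 in ileum and distal colon, and Il1rn in jejunum and ileum (by the probe set used for the gene) were not above the floor, so differences there were not detectable at this signal.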
